A study of Mus musculus with 4 samples.

Results

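Flt3, Kit, Ly6a, Cd34, Cd48 and Cd27 encode the surface proteins by which blood stem and progenitor cells of mouse bone marrow are sorted. These 6 genes were taken by name as the markers of the LSK and Flt3 gates and of stem and progenitor fractions, among 19938 genes with a probe set of their own on the array. The platform's annotation gave 1 unshared probe set each for Flt3, Kit, Cd34, Cd48 and Cd27, so 5 of the 6 were measured. It named no probe set for Ly6a, which encodes Sca-1, and Ly6a was not analysed here.

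RNA was measured on 4 Affymetrix arrays, each holding sorted marrow cells pooled from 5 to 30 mice of the C57BL/6 background. The Hdac3 null LSK/Flt3- group, of genotype Vav-Cre/Hdac3Flox/-, had 2 arrays. The wild type LSK/Flt3+ group, WT Flt3+ from here on, had 1 array, as did the wild type LSK/Flt3- group, WT Flt3- from here on. Hdac3 encodes a histone deacetylase, a repressor enzyme of corepressor complexes. The Vav promoter drives Cre recombinase throughout the blood lineages from the stem cell onwards, so the deletion is not limited to the sorted cells. No Cre-only control was among the samples used here, and neither the age of the mice nor any treatment is given in the sources used here. The labels do not say that the null arrays came from separate mice, so p-values reflect the spread between the deposited samples alone, and this spread may be technical.

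LSK cells lack the antigens of mature lineages and carry Sca-1 and the receptor Kit on their surface. Within this fraction Flt3 and CD27 are low or absent on the most primitive stem cells and present on multipotent and lymphoid-primed progenitors. CD34 is absent from most long-term stem cells of the adult mouse and present on later progenitors, while CD48 is absent from long-term stem cells and gained as they commit. Sorting acts on the protein, and the arrays measured the RNA.

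The deposited values were log2 expression from RMA, a method that corrects background, normalizes arrays and summarises the probes of a gene, and that gives no call of presence. The median over all probe sets was 5.60 and 5.30 on the null arrays, 5.36 in WT Flt3+ and 5.32 in WT Flt3- cells, so the arrays were not on fully equal scales. Centring them moves the median difference over all genes between null and WT Flt3- cells to -0.02, against 0.09 as deposited. With so few arrays precision is limited, and a log2 difference of null from wild-type cells had a median standard error of 0.34. Hdac3 itself had log2 levels of 5.71 and 5.04 on the null arrays, 6.33 in WT Flt3+ and 6.18 in WT Flt3- cells, and neither difference passed the limma test (adjusted p = 1 for each). No source used here says where its probes lie relative to the deleted part, and these levels therefore do not check the labels. Xist was at 10.84 and 9.67 on the null arrays, against 3.90 in WT Flt3+ and 4.23 in WT Flt3- cells. Of the Y-linked genes, Uty, Kdm5d and Eif2s3y had their lowest levels on the null arrays. The part of the sex makeup of the pools in the results below was not tested.

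Flt3, Cd27 and Cd34 were each lower on both null arrays than on both wild-type arrays, and Cd48 and Kit were each higher on both. Of the 5 measured genes, 3 therefore lay wholly below and 2 wholly above, where 11.7% and 23.0% of all genes did so. With array medians centred the counts were the same, 3 below and 2 above, where 17.9% and 17.0% of all genes lay so. The median absolute log2 difference of the 5 genes between null and WT Flt3- cells was 0.72, against 0.19 over all genes. The median gap of the 5 genes between the null replicates was 0.13 as deposited, against 0.27 over all genes. With array medians centred this gap widened for Cd27, Cd34 and Cd48 and narrowed for Flt3 and Kit. Only Flt3 passed the limma test over all genes, and only in null against WT Flt3+ cells. Among all genes 0.281% fell and 0.0351% rose by that test in that comparison.

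**Figure D1:**
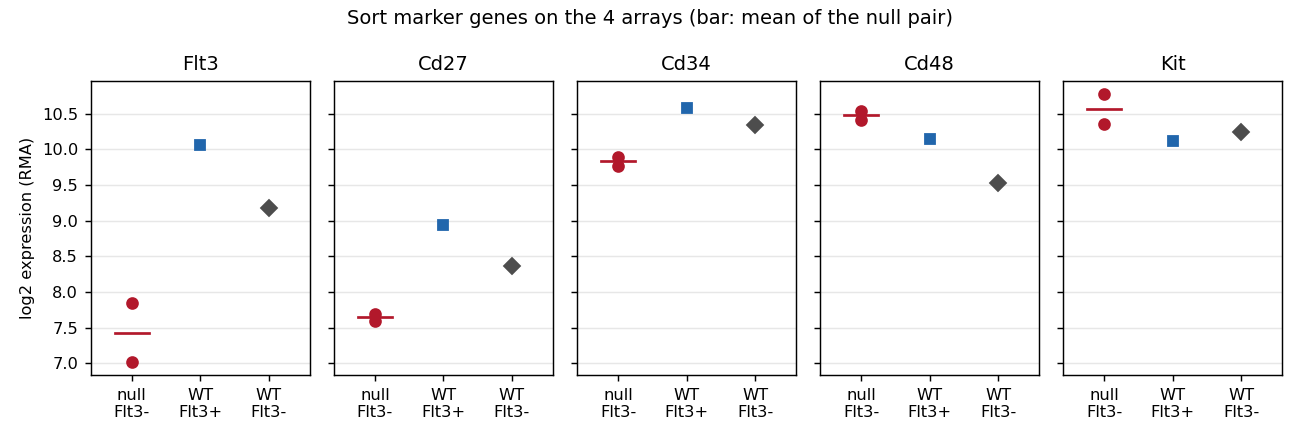
Log2 expression (RMA) of Flt3, Cd27, Cd34, Cd48 and Kit, 1 panel a gene, with the 2 null arrays as red circles (bar: their mean), WT Flt3+ as a blue square and WT Flt3- as a grey diamond. Both null arrays lie below both wild-type arrays for Flt3, Cd27 and Cd34 and above them for Cd48 and Kit; levels are to be compared within a panel only.

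Flt3 encodes the receptor tyrosine kinase for Flt3 ligand, and its protein defined the gate that split the wild-type samples. The log2 level of Flt3 RNA was 7.84 on null replicate 1 and 7.02 on null replicate 2, against 10.07 in WT Flt3+ and 9.18 in WT Flt3- cells. All 4 arrays were apart: WT Flt3+ was highest, both null arrays were lowest, and the groups did not overlap. Flt3 fell by 2.64 on the log2 scale (± 0.42, SE) in null against WT Flt3+ cells (limma, adjusted p = 0.0317), a level 6.23-fold lower. The adjusted p was 0.0772 when only the 8418 genes with a mean log2 level of at least 6 were tested. That comparison differs in the Flt3 gate as well as in genotype.

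Between cells sorted by the same Flt3- gate, the log2 difference of Flt3 in null minus wild-type cells was -1.75 ± 0.42 (SE), a level 3.36-fold lower, which did not pass over all genes (limma, adjusted p = 0.692; unadjusted p = 0.00191). The limma 95% interval of this difference ran from -2.68 to -0.81. On null replicates 1 and 2 apart it was -1.33 and -2.16, so both arrays were more than 2-fold below WT Flt3- cells, as 0.381% of all genes were. By the size of the mean difference, 23 of the 19938 genes were at least as low as Flt3. In bulk RNA, fewer cells with a transcript and less transcript per cell cannot be told apart.

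The step between the wild-type gates was smaller than the step to the null cells. WT Flt3+ cells had Flt3 RNA at a log2 difference of 0.89 over WT Flt3- cells, or 1.85-fold, with 1 array on each side and no test. The gap between the null replicates was 0.83, so a wild-type gap of this size is close to the spread of the one replicated group. WT Flt3- cells, sorted for lack of the protein, thus held Flt3 RNA at a level nearer to the WT Flt3+ array than to either null array.

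Cd27 encodes a receptor of the tumour necrosis factor receptor superfamily whose ligand is CD70. Its RNA was at 7.59 and 7.70 on the null arrays, against 8.94 in WT Flt3+ and 8.37 in WT Flt3- cells. The order of the groups was that of Flt3, and the null replicates lay 0.11 apart as deposited. With array medians centred they were farther apart, at 7.46 and 7.75. The log2 difference in null minus wild-type cells was -1.30 ± 0.36 (SE) against WT Flt3+ (limma, adjusted p = 0.436; unadjusted p = 0.00456), a level 2.46-fold lower. Both null arrays were more than 2-fold below WT Flt3+ cells, where 1.08% of all genes were.

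Against WT Flt3- cells the log2 difference of Cd27 was -0.72 ± 0.36 (SE; limma, adjusted p = 1; unadjusted p = 0.0695). Its 95% interval, -1.52 to 0.07, spans no difference and a fall of more than 2-fold. The wild-type arrays differed by 0.57 in Cd27, higher in WT Flt3+ cells, which lies inside the central 95% of all genes (-0.52 to 0.66).

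Cd34 encodes a sialomucin, a heavily glycosylated surface protein that can serve as a selectin ligand. Cd34 RNA was at 9.77 and 9.90 on the null arrays, against 10.58 in WT Flt3+ and 10.34 in WT Flt3- cells. Both null arrays were the lowest, and the nearest of them lay 0.44 below WT Flt3- cells, while the null replicates were 0.13 apart as deposited. With array medians centred the null replicates were farther apart, at 9.64 and 9.95, against 10.42 in WT Flt3- cells. The log2 difference in null minus wild-type cells was -0.74 ± 0.32 (SE) against WT Flt3+ (limma, adjusted p = 1; unadjusted p = 0.0450) and -0.51 ± 0.32 (SE) against WT Flt3- (limma, adjusted p = 1; unadjusted p = 0.147). Neither passed over all genes, and neither reached 2-fold on either null array.

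Cd48 encodes a small surface protein of the SLAM family, anchored by a lipid tail, which binds CD244 and CD2. Cd48 RNA was at 10.41 and 10.54 on the null arrays, against 10.15 in WT Flt3+ and 9.53 in WT Flt3- cells. The null arrays were the highest and WT Flt3- cells the lowest, so Cd48 did not follow the order of Flt3, Cd27 and Cd34. The log2 difference in null minus WT Flt3- cells was 0.94 ± 0.32 (SE), a level 1.92-fold higher, and did not pass over all genes (limma, adjusted p = 1; unadjusted p = 0.0154). It was 0.88 and 1.01 on null replicates 1 and 2 apart, and 129 of the 19938 genes had a mean difference at least as high.

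Against WT Flt3+ cells Cd48 differed by 0.33 ± 0.32 (SE; limma, adjusted p = 1), with a 95% interval of -0.39 to 1.05. Between the wild-type gates Cd48 was 0.62 higher in WT Flt3+ cells, or 1.53-fold. This wild-type gap was larger than the 0.13 between the null replicates as deposited, but lies inside the central 95% of all genes (-0.52 to 0.66). With array medians centred the wild-type gap was 0.54, and the null replicates were farther apart, at 10.29 and 10.59.

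Kit encodes the receptor tyrosine kinase for stem cell factor, and its protein gave the K of the LSK gate on every array. Kit RNA was at 10.77 and 10.36 on the null arrays, against 10.11 in WT Flt3+ and 10.25 in WT Flt3- cells. Null replicate 2 lay only 0.11 above WT Flt3- cells, less than the 0.42 between the null replicates, so the order of these levels rests on gaps within the replicate spread. The log2 difference in null minus wild-type cells was 0.45 ± 0.34 (SE) against WT Flt3+ and 0.32 ± 0.34 (SE) against WT Flt3- (limma, adjusted p = 1 for each). The 95% intervals, -0.30 to 1.20 and -0.43 to 1.06, leave room for a 2-fold rise and for no change.

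**Figure D2:**
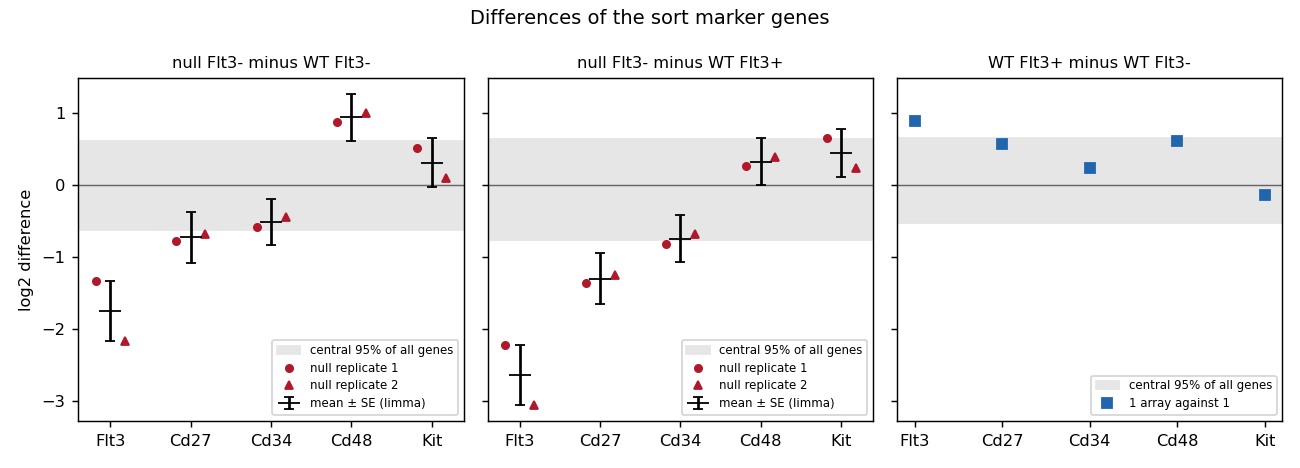
Log2 differences of the 5 genes in null minus WT Flt3- (left), null minus WT Flt3+ (middle) and WT Flt3+ minus WT Flt3- cells (right); black bars are limma means ± SE, red symbols the null replicates against the same wild-type array, blue squares 1 array against 1, and grey bands the central 95% of all genes. Flt3, at -1.75 and -2.64, lies farthest below the band in both null comparisons, and Cd48, at 0.94, lies above it against WT Flt3- cells only.

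The null arrays are shared by both comparisons, which are therefore not independent. Against WT Flt3- cells 0 of the 5 genes passed limma over all genes, where 0.0201% of all genes rose and 0.00% fell, and Flt3 and Cd48 had an unadjusted p under 0.05. Against WT Flt3+ cells Flt3 passed, and Cd27 and Cd34 joined it at an unadjusted p under 0.05. With array medians centred, the unadjusted limma p was 0.0581 for Cd48 against WT Flt3- and 0.0719 for Cd34 against WT Flt3+ cells, and neither was then under 0.05. Among all genes 1.10% were higher and 1.30% lower at an unadjusted p under 0.05 against WT Flt3- cells, and 1.13% higher and 2.31% lower against WT Flt3+ cells. Between the wild-type arrays 0 of the 5 were 2-fold apart, where 0.923% of all genes were that much higher and 0.176% that much lower in WT Flt3+ cells.

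The bases just before the annotated starts of Flt3, Cd27 and Cd48 are printed because the first of these passed a test, the next had the same order over the arrays and the last the opposite direction in null cells. They are the 250 bases upstream of the RefSeq start on build GRCm38.p6, at chr5:147400490-147400739 on the minus strand for Flt3, chr6:125237028-125237277 on the minus strand for Cd27 and chr1:171681742-171681991 on the plus strand for Cd48. Capitals mark matches on either strand to GAGGAA (the core bound by PU.1), AGATAA (recognised by GATA factors), TGTGGT (RUNX factors), CAGNTG (an E-box) and GGGCGG (Sp1).
Flt3: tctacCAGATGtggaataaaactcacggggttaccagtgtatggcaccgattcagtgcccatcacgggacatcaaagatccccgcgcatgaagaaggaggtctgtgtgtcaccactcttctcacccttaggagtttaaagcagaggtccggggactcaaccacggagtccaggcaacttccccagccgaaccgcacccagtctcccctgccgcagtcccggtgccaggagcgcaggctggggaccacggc
Cd27: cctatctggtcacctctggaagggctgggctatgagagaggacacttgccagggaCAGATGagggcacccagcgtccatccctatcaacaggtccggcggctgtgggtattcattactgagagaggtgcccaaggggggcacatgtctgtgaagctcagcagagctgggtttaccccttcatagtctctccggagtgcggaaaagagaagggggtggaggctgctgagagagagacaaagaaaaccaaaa
Cd48: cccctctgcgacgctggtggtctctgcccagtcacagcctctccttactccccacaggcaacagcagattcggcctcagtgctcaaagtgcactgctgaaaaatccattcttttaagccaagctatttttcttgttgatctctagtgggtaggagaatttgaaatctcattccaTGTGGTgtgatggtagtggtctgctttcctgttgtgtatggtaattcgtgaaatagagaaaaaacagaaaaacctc
The Flt3 window held 1 CAGNTG match and the Cd27 window 1, and the Cd48 window held 1 TGTGGT match. In 32536 distinct windows of the same length CAGNTG occurred in 44.8% and TGTGGT in 14.0%. The Kit window held 1 GAGGAA and 1 GGGCGG match, found in 23.4% and 33.0% of windows, and the Cd34 window held 0 matches to the 5 motifs. No match overlapped another. GC content was 59.2% for Flt3, 56.0% for Cd27, 46.0% for Cd48, 46.4% for Cd34 and 70.8% for Kit. These matches are letters in a window and say nothing of binding.

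The genes most like Flt3 over the 4 arrays were found by the root mean square difference of log2 levels, each centred on its own mean, among 8413 genes with a mean level of at least 6. They were Il1b (0.228), an inflammatory cytokine gene, Il18rap (0.236), a chain of the interleukin-18 receptor, Rgl1 (0.254), Satb1 (0.267), a chromatin organiser of lymphoid cells, and Tanc2 (0.345). Satb1 stood at 7.38 and 6.96 on the null arrays, against 10.09 in WT Flt3+ and 9.46 in WT Flt3- cells. Nearest to Cd27 were Dusp6 (0.0582), a phosphatase that acts on ERK, Serpinf1 (0.0904), Clec4d (0.0912), Nabp1 (0.0950) and Ldlrad4 (0.0975). Nearest to Cd48 were Mccc2 (0.0474), Pclaf (0.0922), Macroh2a2 (0.0948), Map11 (0.0980) and Cst7 (0.0991). With 4 arrays and so many genes, close matches are to be had for many patterns. Kit and Cd34 spanned less than 1 log2 unit and were not matched.

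The families of the 5 genes did not move as blocks. Beside the list counts below, 2.4% of all genes had an unadjusted limma p under 0.05 against WT Flt3- and 3.44% against WT Flt3+ cells. Among the class III receptor tyrosine kinases, 5 of 5 measured, Csf1r, the macrophage colony-stimulating factor receptor gene, was at 5.59 and 5.97 on the null arrays, against 8.11 in WT Flt3+ and 5.77 in WT Flt3- cells. Its low level was thus shared by all LSK/Flt3- samples, and it fell with Flt3 in null against WT Flt3+ cells (log2 difference -2.34; limma, adjusted p = 0.0250). The log2 difference between null and WT Flt3- cells was 0.01 for Csf1r and -0.93 for Pdgfrb, and -0.18 for Pdgfra (limma, adjusted p = 1 for each). The family's median was -0.18 in that comparison, against 0.09 over all genes. Against WT Flt3+ cells 2 of its 5 genes fell by limma and 0 rose, where 0.281% and 0.0351% of all genes did.

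In the SLAM and CD2 family 10 of 12 listed symbols were measured, of which Cd244 is an older name of Cd244a. Slamf1 encodes CD150, which with CD48 is used to tell stem cells from multipotent progenitors. Its RNA was at 8.52 and 8.17 on the null arrays, against 5.08 in WT Flt3+ and 6.16 in WT Flt3- cells. Slamf1 rose by 3.27 on the log2 scale in null against WT Flt3+ cells (limma, adjusted p = 0.00506), and its difference from WT Flt3- cells was 2.18 (limma, adjusted p = 0.174). It was the only one of the 10 to pass in either comparison. Slamf1 and Cd48 were thus both highest on the null arrays, while the log2 difference in WT Flt3+ minus WT Flt3- cells was -1.08 for Slamf1 and 0.62 for Cd48. Cd244a, the gene of the CD48 receptor 2B4, stood at 7.32 and 6.37 on the null arrays, against 7.95 in WT Flt3+ and 7.63 in WT Flt3- cells, and did not pass in either comparison. Cd2 was at a log2 difference of 0.41 in null minus WT Flt3- cells (limma, adjusted p = 1), and the family's median was 0.07.

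Of the sialomucins, 7 of 7 were measured. Emcn, an endomucin gene of stem cells and endothelium, was at 4.67 and 4.24 on the null arrays, against 7.09 in WT Flt3+ and 6.44 in WT Flt3- cells, the order of groups seen for Cd34. Emcn fell by 2.63 on the log2 scale in null against WT Flt3+ cells (limma, adjusted p = 0.0108) and was the only one of the 7 to pass. The family's median was 0.10 in null minus WT Flt3- cells. Podxl, which encodes the CD34-related podocalyxin, was at 5.58 and 6.03 on the null arrays, against 5.12 in WT Flt3+ and 4.61 in WT Flt3- cells. The log2 difference of Podxl from WT Flt3- cells was 1.20 ± 0.34 (SE; limma, adjusted p = 0.995), opposite to that of Cd34, and that of Podxl2 was 0.55.

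Of the TNF receptor superfamily 22 of 22 were measured and 0 passed limma in either null comparison, with 1 at an unadjusted p under 0.05 against WT Flt3- and 2 against WT Flt3+ cells. The family's median was 0.22 in null minus WT Flt3- cells, against 0.09 over all genes. Cd27 was among 2 genes lower on both null arrays, with 12 higher on both, where 19.9% and 41.3% of all genes were. The other genes named by the size of their mean difference were the death receptor genes Tnfrsf10b (0.77) and Fas (0.76) and the costimulatory receptor gene Tnfrsf9 (0.58). On null replicates 1 and 2 the log2 differences were 0.71 and 0.83 for Tnfrsf10b, 0.22 and 1.30 for Fas, and 0.79 and 0.36 for Tnfrsf9, so that of Fas rested mainly on null replicate 2. In the Ly6 cluster, which holds Ly6a, 13 of 17 genes were measured, and 0 passed limma in either null comparison, with 0 at an unadjusted p under 0.05 in either. The cluster's median was 0.18 in null minus WT Flt3- cells, against 0.09 over all genes. With array medians centred, the mean level of the cluster was 5.40 on each null array, 5.32 in WT Flt3+ and 5.36 in WT Flt3- cells. By the mean difference from WT Flt3- cells the genes farthest from 0 were Slurp1, Gpihbp1, Ly6m and Ly6f. As deposited, each of these means rested mainly on null replicate 1, the array with the highest median. On null replicates 1 and 2 the log2 differences were 0.96 and 0.30 for Slurp1, 0.78 and -0.13 for Gpihbp1, 0.51 and 0.04 for Ly6m, and 0.49 and -0.02 for Ly6f. None stands in for Ly6a.

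**Figure D3:**
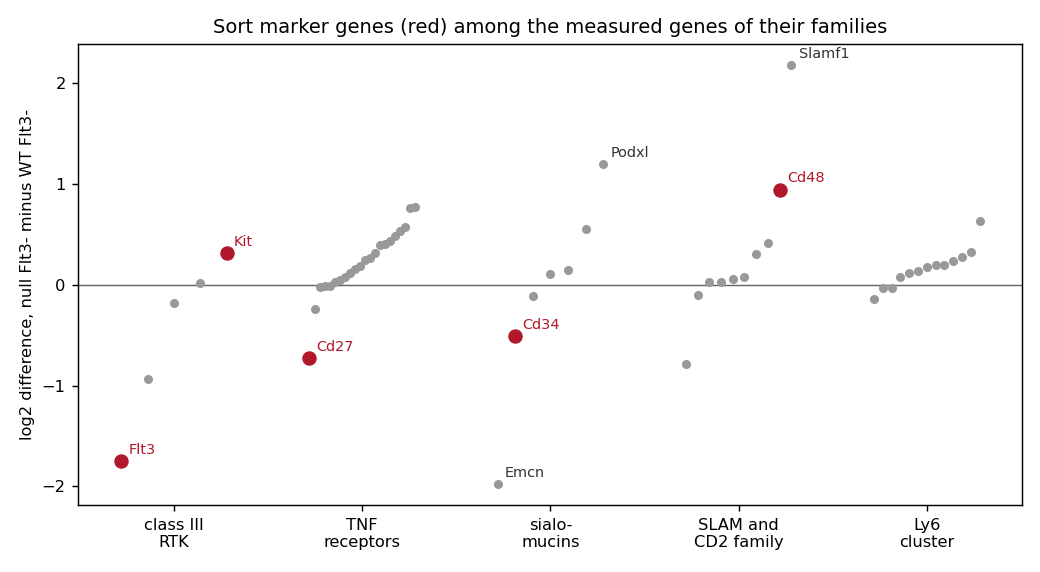
Log2 difference in null minus WT Flt3- cells for each measured gene of 5 families (1 point a gene, ordered within a family by value), with Flt3, Kit, Cd27, Cd34 and Cd48 in red and other genes past 2-fold named. Flt3 and Cd27 are the lowest of their families, Kit the highest of the receptor tyrosine kinases, and Cd48 second to Slamf1 in the SLAM family.

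Ligands and partners of the 5 receptors gave 0 calls by limma in either null comparison among the 10 of 14 listed symbols measured, with 1 gene at an unadjusted p under 0.05 in each. Flt3l, the Flt3 ligand gene, was at 6.37 and 6.02 on the null arrays, against 5.72 in WT Flt3+ and 5.81 in WT Flt3- cells, and did not pass (limma, adjusted p = 1 for each). Sele, an endothelial selectin gene, was at a log2 difference of 0.83 from WT Flt3- cells (limma, adjusted p = 1).

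Of 38 genes that act in Kit and Flt3 signalling 33 were measured, and 0 passed limma in either null comparison, with 2 at an unadjusted p under 0.05 against WT Flt3- and 3 against WT Flt3+ cells. The median was 0.02 in null minus WT Flt3- cells and 0.02 in null minus WT Flt3+ cells. Socs2, a feedback inhibitor of cytokine receptors, was at 7.06 and 6.68 on the null arrays, against 6.02 in WT Flt3+ and 5.91 in WT Flt3- cells (log2 difference from WT Flt3- cells 0.96; limma, adjusted p = 1). These levels are of 1 of its probe sets. Over the mean of its probe sets Socs2 differed by 0.92 from WT Flt3- and 1.19 from WT Flt3+ cells. The difference in WT Flt3+ minus WT Flt3- cells was then -0.27, against 0.10 for the probe set used. Gab1, an adaptor, was at 6.18 and 6.26 on the null arrays, against 7.25 in WT Flt3+ and 7.16 in WT Flt3- cells (-0.94; limma, adjusted p = 1). Both null arrays lay above both wild-type arrays for Socs2 and below them for Gab1, as for 23.0% and 11.7% of all genes. Pik3cd (0.68) and Pik3r1 (-0.47), subunits of phosphoinositide 3-kinase, were next. The difference of Pik3cd was 0.34 on null replicate 1 and 1.01 on null replicate 2.

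Among transcription factors of stem and progenitor cells 25 of 26 were measured, and Satb1 fell in null against WT Flt3+ cells (log2 difference -2.92; limma, adjusted p = 0.00931) as the only one to pass. Gfi1b, a transcriptional repressor that acts in the erythroid and megakaryocyte lineages, was at a log2 difference of -0.94 from WT Flt3- cells. Cebpa, a granulocyte-monocyte factor gene, was at 0.76 and Runx1 at 0.76 (limma, adjusted p = 1 for Gfi1b, Cebpa and Runx1). The list's median was -0.09.

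Of 30 other antigens used to sort stem and progenitor fractions 27 were measured. Against WT Flt3- cells 0 passed limma, with 4 higher and 2 lower at an unadjusted p under 0.05, where 1.10% and 1.30% of all genes were. Against WT Flt3+ cells Slamf1 rose, and Il7r, the interleukin-7 receptor gene (log2 difference -2.13; limma, adjusted p = 0.0231), and Csf1r fell. Alcam, an adhesion gene, was at -1.07 from WT Flt3- cells, Prom1 at 0.91 (1.28 and 0.54 on null replicates 1 and 2) and Fcgr3, the CD16 gene that marks granulocyte-monocyte progenitors, at 0.87 (limma, adjusted p = 1 for each). Of 12 genes of antigens that depletion commonly targets 10 were measured, and 0 passed limma in either null comparison. At an unadjusted limma p under 0.05 there were 0 against WT Flt3- and 3 against WT Flt3+ cells. Ptprc was at 9.77 and 9.06 on the null arrays, against 9.63 in WT Flt3+ and 9.60 in WT Flt3- cells. Its level is not read here as a sign of mature cells. By the mean difference from WT Flt3- cells Cd8a, Klrb1c, Ptprc and Itgam came first, and the null arrays lay on opposite sides of WT Flt3- cells for the last 2. On null replicates 1 and 2 the log2 differences were 0.67 and 0.35 for Cd8a, 0.51 and 0.07 for Klrb1c, 0.17 and -0.54 for Ptprc, and 0.44 and -0.08 for Itgam.

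Markers of other cells moved with the same comparisons. Mean log2 levels over macrophage and dendritic cell markers, 13 of 14 listed symbols, were 5.05 and 5.01 on the null arrays, against 7.10 in WT Flt3+ and 5.27 in WT Flt3- cells. By limma 7 of these 13 genes fell in null against WT Flt3+ cells and 0 rose, where 0.281% and 0.0351% of all genes did. Among the 7 were Mrc1 (-4.13), Adgre1 (-2.84) and Cd74 (-2.73), and Csf1r is a gene of such cells too. Lymphoid-primed markers, 15 of 16 measured, averaged 5.53 and 5.26 on the null arrays, 6.55 in WT Flt3+ and 5.96 in WT Flt3- cells, the order of Flt3 and Cd27. Their median log2 difference from WT Flt3- cells was -0.15, and Dntt (-3.14) and Satb1 (-2.29) lay farthest below. On both null arrays 7 were lower and 2 higher than in WT Flt3- cells, where 19.9% and 41.3% of all genes were. Against WT Flt3+ cells Dntt (-4.95), Satb1 (-2.92) and Il7r (-2.13) fell by limma and 0 rose. Granulocyte-monocyte progenitor markers, 15 of 15, averaged 7.37 and 7.78 on the null arrays, 7.27 in WT Flt3+ and 6.53 in WT Flt3- cells. With array medians centred, null replicate 1 was at 7.24 and no longer above WT Flt3+ cells, at 7.27. In null against WT Flt3+ cells 1 of these 15 genes rose (Ms4a3, 2.80) and 2 fell (Csf1r and Ly86). Ms4a3 also rose against WT Flt3- cells (log2 difference 3.11; limma, adjusted p = 0.0321). It was the only one of the 15 to pass there, where 0.0201% of all genes rose and 0.00% fell. Higher on both null arrays than in WT Flt3- cells were 11 of the 15, and 1 was lower, where 41.3% and 19.9% of all genes were. The median log2 difference of this list from WT Flt3- cells was 0.86. For long-term stem cell markers, 14 of 15, the means were 6.58 and 6.35 on the null arrays, 6.06 in WT Flt3+ and 6.38 in WT Flt3- cells. These means join genes of both directions. Against WT Flt3- cells 6 of the 14 were higher and 4 lower on both null arrays, where 41.3% and 19.9% of all genes were. By the mean log2 difference Slamf1 (2.18) and Vwf (1.30) lay farthest above WT Flt3- cells and Vldlr (-1.34) and Mecom (-1.32) farthest below. As RMA gives no call of presence, these levels do not say which markers were expressed. The part of cell makeup in the levels of Flt3, Cd27, Cd34, Cd48 and Kit was not tested.

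**Figure D4:**
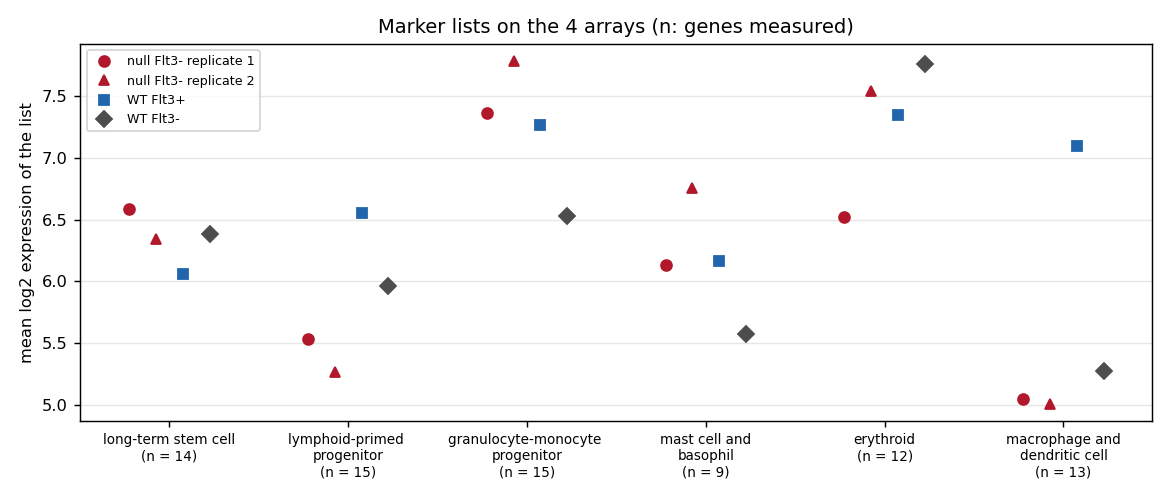
Mean log2 expression of 6 marker lists on each array: null replicates 1 and 2 (red circle and triangle), WT Flt3+ (blue square) and WT Flt3- (grey diamond). The macrophage and dendritic cell mean is 7.10 on the WT Flt3+ array and between 5.01 and 5.27 on the others; the erythroid mean is 6.52 and 7.54 on the null arrays, against 7.35 in WT Flt3+ and 7.76 in WT Flt3- cells.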

How the data were processed

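Sorted mouse marrow cells were measured on 4 one-colour arrays: 2 of null LSK/Flt3- cells and 1 of each wild-type fraction, LSK/Flt3+ and LSK/Flt3-. Per the submitters' processing notes, the authors used affy 1.23 and RMA, and the deposited unit is log2 expression of a probe set; no source used here names a genome build. Of 35556 probe sets the annotation gave a single symbol to 21789, several to 1621 and none was listed for 12146. For each of 19938 genes the single-symbol probe set with the highest mean was used.

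All 4 arrays entered 1 fit with 3 groups in limma 3.58.1 (R 4.3.3) with a mean-dependent prior, two-sided, with Benjamini-Hochberg adjustment over all genes at 0.05. The null pair gives the 1 residual degree of freedom beside 9.01 prior ones, so the spread of the null pair stands in for that of the single wild-type arrays. The comparison of null with wild-type LSK/Flt3- cells was also simulated for 19938 genes. The simulated spread was drawn from the prior of the fit, equal in all groups and with no difference of scale between arrays. In that setting the fit recovered 2% of changes of 1 log2 unit, 62% of 2 and 98% of 3. Recovery on the real arrays may differ. The wild-type arrays were compared without a test.

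From each gene list the 4 genes with the largest absolute difference between null and wild-type LSK/Flt3- cells were named, plus any that passed the test. Genes named from the marker lists were picked with their values in view. The 6 genes and the lists were chosen with earlier results of these data known. Promoter sequences are RefSeq's on GRCm38.p6, matched by symbol. Alternatives were other variance priors, normalizations, probe set summaries and filters, and leaving out each null array.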

Additional observations from a re-analysis of the deposited data

How the results depend on the processing

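Under 7 other settings of the fit, the differences of Flt3, Cd27, Cd34, Cd48 and Kit from both wild-type groups kept their direction. The adjusted p of Flt3 in null LSK/Flt3- against wild-type LSK/Flt3+ cells ranged from 0.00207 to 0.0772. It missed the threshold when only the 8418 genes averaging at least 6 were kept, where 0 of the 5 genes passed; fewer genes were tested there, and the prior was refitted on them. Against wild-type LSK/Flt3- cells the adjusted p of Flt3 ranged from 0.211 to 0.837. With array medians centred, the Cd27 difference between wild-type LSK/Flt3+ and LSK/Flt3- cells was 0.49. The difference of Csf1r between null and wild-type LSK/Flt3- cells, 0.01 as reported, was -0.11 after quantile normalization, -0.0641 after cyclic loess and -0.10 with medians centred, and that of Ly6m from wild-type LSK/Flt3+ cells was -0.00051 after cyclic loess. With robust estimation of the spread Slamf1 (adjusted p = 0.0195), Satb1 (0.0195) and Emcn (0.0201) passed against wild-type LSK/Flt3- cells too. Over all genes robust estimation called 12 higher and 13 lower against wild-type LSK/Flt3- cells, against 4 and 0 as reported, and 15 and 99 against LSK/Flt3+ cells, against 7 and 56 as reported. Cyclic loess called 4 higher and 1 lower against LSK/Flt3- and 10 and 104 against LSK/Flt3+ cells. Centred medians called 2 and 0 against LSK/Flt3- and 10 and 89 against LSK/Flt3+ cells, and quantile normalization 2 and 0 against LSK/Flt3- cells; the filter at a mean of 6 called 3 and 0 and 5 and 17. Leaving out a null array leaves no residual degree of freedom, so only values without a test remain; without replicate 1 and without replicate 2 Flt3 was at -2.16 and -1.33 from wild-type LSK/Flt3- cells and at -3.05 and -2.23 from LSK/Flt3+ cells. Without replicate 1 the differences of Gpihbp1 (-0.13), Ly6f (-0.02) and Itgam (-0.08) from wild-type LSK/Flt3- cells had the opposite sign to their means, as had that of Ptprc (0.17) without replicate 2, and that of Csf1r ranged from -0.18 to 0.21. No paired analysis was possible because each wild-type group had only 1 array.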
